A study of Mus musculus with 20 samples.

Results

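The 39 genes described here encode the enzymes and carriers that extend and cap the sugar chains of mucins and that supply their sugars, sialic acid and sulfate. They were chosen by name: a probe belonged to a gene when the array's own gene name was that gene's, and the brightest usable probe stood for it. All 39 were on the array, with 66 probes, and 36 entered the tests among 17077 genes tested in all. St6galnac1, which sialylates the first sugar of an O-glycan, Fut1, a fucosyltransferase of the H antigen, and Chst5, an intestinal sulfotransferase, were not tested, because no group of arrays read them well above background throughout.

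The arrays compared pooled RNA from the whole gut of Spdef KO mice with pooled RNA from wild type mice; Spdef is an Ets-family transcription factor of secretory cells. The KO and wild type pools came from adult small intestine (2 pairs of pools), adult colon (3 pairs), fetal small intestine (3 pairs) and fetal colon (2 pairs), adults being at P30 (postnatal) and fetuses at E18.5 (embryonic). The KO genotype is given as Spdef-/-, and the titles of the fetal colon arrays also hold the word adult, where their other labels say fetal. Each pool held 2 to 3 littermates, and each pair was run on 2 arrays with the dyes exchanged, 20 arrays in all; the labels give neither the mouse strain nor how the KO allele was made. Pairs 1 and 2 of fetal small intestine differed by less than the spread between an array and its dye swap (0.725 of it in the KO channel and 0.723 in the wild type channel, against 1.31 to 5.18 for the other 7 pairings within a group), so they were averaged and counted as 1 replicate, which left 9 replicates.

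Mucins such as Muc2 carry dense O-glycans. Each chain starts from a single sugar, is built into a core, is lengthened by alternating galactose and N-acetylglucosamine, and is capped with sialic acid, fucose or sulfate, all from donors that carriers bring into the Golgi. In the gut these caps bind microbes and hold water in the mucus, and colon and small intestine carry different sets of them. The members follow this order below: core, extension, sialic acid, fucose, sulfate, then donor synthesis and carriers.

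Upstream sequences are shown for 4 of the 5 members whose KO and wild type levels differed in adult colon, the result with most calls among the KO comparisons. RefSeq promoter sequences of GRCm38.p6 were at hand for 31 of the 39 members, St6galnac2 not among them. The 150 bases before the RefSeq start were searched on both strands for 2 Ets-type words, CAGGAT and CCGGAA, which do not overlap in these windows; capitals mark a match, and the most upstream of the 4 listed starts of Fut8 was used.
Slc35a1, chr4:34687439-34687588, minus strand: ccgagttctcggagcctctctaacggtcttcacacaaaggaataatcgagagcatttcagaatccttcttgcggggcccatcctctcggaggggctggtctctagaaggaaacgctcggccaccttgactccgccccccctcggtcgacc
St3gal3, chr4:118134947-118135096, minus strand: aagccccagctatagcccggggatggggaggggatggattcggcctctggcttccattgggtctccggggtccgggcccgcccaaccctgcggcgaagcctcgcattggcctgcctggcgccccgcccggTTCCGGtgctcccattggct
Fut4, chr9:14752123-14752272, minus strand: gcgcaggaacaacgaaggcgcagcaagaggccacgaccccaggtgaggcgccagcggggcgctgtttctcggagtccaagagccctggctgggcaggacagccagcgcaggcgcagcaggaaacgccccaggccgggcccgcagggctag
Fut8, chr12:77237954-77238103, plus strand: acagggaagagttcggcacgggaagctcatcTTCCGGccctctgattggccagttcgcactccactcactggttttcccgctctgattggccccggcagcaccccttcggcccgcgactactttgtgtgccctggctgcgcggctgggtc
CCGGAA, read here as its reverse complement, stood 20 bases before the St3gal3 start and 119 bases before the Fut8 start. It occurred in 2 of the 31 members with a sequence and in 9.23% of all 32851 promoters of the same length. CAGGAT occurred in 3 members (Papss1, St6gal1 and Uap1) and in 8.12% of all promoters. A member counted if any of its listed starts held the word, whereas the shares count single promoters, so the units differ. These matches describe letters only.

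Spdef itself was lower in KO pools on 20 of 20 arrays, with log2 KO over wild type between -4.09 and -1.20; whether its probe lies in the deleted part is not given. Channels read 39.7% to 71.6% of the probes well above background. The first array of adult colon pair 1 stood apart, with a median correlation of 0.734 between its wild type levels and those of the other adult colon arrays. Genes known to mark small intestine or colon went against the label in 2 pairs: Hoxb13, a colon gene, had log2 levels of 11.61 (KO) and 11.64 (wild type) in fetal small intestine pair 3 and of 6.93 (KO) and 6.99 (wild type) in fetal colon pair 1. The small intestine gene Lct had 8.98 (KO) and 8.76 (wild type) in that small intestine pair, and 16.42 (KO) and 16.37 (wild type) in that colon pair. Both pairs were kept in the groups their labels give, and results that involve them are given with and without them.

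**Figure D1:**
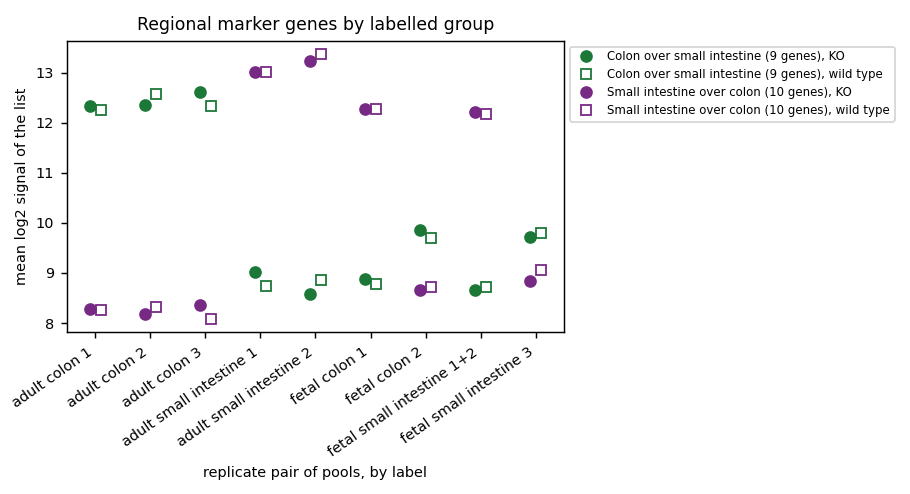
Mean log2 signal (vertical axis) of 9 genes known to be higher in colon (green) and 10 known to be higher in small intestine (purple) in each replicate by its label (horizontal axis), with KO pools as filled circles and wild type pools as open squares. Fetal colon 1 sits with the small intestine pools (12.28 in KO and 12.27 in wild type for the small intestine genes) and fetal small intestine 3 with the colon pools (8.84 and 9.05).

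The first question was whether loss of Spdef changed these genes. In adult colon, 4 of the 36 tested members were lower and 1 was higher in KO pools, by 1.20- to 1.31-fold. St6galnac2, Fut4, Fut8 and Slc35a1 were the lower ones and St3gal3 the higher one. That is 13.9% of the members, beside 9.59% of all genes tested (limma, Benjamini-Hochberg over all genes, threshold 0.05, two-sided). The members' median log2 ratio there was -0.10, with 27 of 36 below 0; the median over all genes was -0.0025, with 50.8% below 0. In the other 3 groups no member passed the test. Spdef itself did not pass there either. Its fitted log2 values were -2.27 (adult small intestine), -2.56 (fetal small intestine) and -2.2 (fetal colon). The limma adjusted p-values were 0.0951, 0.0673 and 0.154 in that order. It passed in adult colon (-3.69, adjusted p = 0.002). The goblet gene Agr2 did pass in all 3 of these groups, at -0.62, -1.15 and -1.13. A missing call there therefore does not show that a member was unchanged. In bulk tissue, fewer cells of a type and less RNA per cell cannot be told apart.

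St6galnac2, a sialyltransferase that adds alpha-2,6 sialic acid to O-glycan cores (probe at mm8 chr11:116492816-116492870), had log2 KO over wild type of -0.28, -0.28 and -0.45 in the 3 adult colon replicates. All 3 were below 0, and the fit gave -0.34 ± 0.059 (limma SE, n = 3, adjusted p = 0.0154). Elsewhere adult small intestine had 0.00 and -0.10, fetal small intestine 0.05 and -0.19, and fetal colon -0.22 and -0.29. It was the only member past the threshold in the mean over the 4 groups (-0.18 ± 0.034, adjusted p = 0.0473), where 1.79% of all genes passed; without the 2 fetal pairs that go against their labels no member did, the lowest adjusted p among members being 0.174, and leaving out any 1 replicate other than fetal small intestine replicate 1 also ended this call. Its 2 dimmer probes averaged -0.08 and -0.14 in adult colon.

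Fut4, a fucosyltransferase that makes Lewis-type structures by alpha-1,3 fucosylation (probe at mm8 chr9:14499173-14499232), had ratios of -0.33, -0.23 and -0.61 in adult colon, with a fitted -0.39 ± 0.075 (n = 3, adjusted p = 0.0203). It was below 0 in all 9 replicates: adult small intestine had -0.04 and -0.18, fetal small intestine -0.09 and -0.26, and fetal colon -0.06 and -0.17. Fut8, which adds the core fucose of N-glycans (probe at mm8 chr12:78393928-78393987), had -0.16, -0.36 and -0.33 in adult colon, with a fitted -0.28 ± 0.059 (n = 3, adjusted p = 0.0285). It too was below 0 in all 9 replicates, and its second probe averaged -0.27 in adult colon, 0.02 in adult small intestine, -0.01 (fetal small intestine) and 0.03 (fetal colon).

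Slc35a1, the carrier that brings CMP-sialic acid into the Golgi (probe at mm8 chr4:34853005-34853064), had -0.18, -0.35 and -0.27 in adult colon, with a fitted -0.27 ± 0.064 (n = 3, adjusted p = 0.0405). Its other ratios were 0.00 and -0.12 for adult small intestine, -0.01 and -0.31 for fetal small intestine, and -0.17 and -0.22 for fetal colon. St3gal3, a sialyltransferase of lactosamine ends (probe at mm8 chr4:117430576-117430635), was higher, with 0.39, 0.16 and 0.38 in adult colon and a fitted 0.31 ± 0.067 (n = 3, adjusted p = 0.0299). Its second probe gave 0.33, 0.00 and 0.47, and its fetal ratios lay between -0.23 and 0.06. The difference of its KO effects, adult colon minus fetal colon, was 0.40 ± 0.11 with an adjusted p of 0.157.

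These 5 calls rested on the 3 adult colon replicates. None remained past the threshold without replicate 1 or without replicate 3, 3 did without replicate 2 (St6galnac2, Fut4 and St3gal3), and 2 did without fetal colon replicate 1 or 2 (St6galnac2 and Fut4). Slc35a1 alone was lost without adult small intestine replicate 1 or 2, and St6galnac2 alone without the adult colon array that stood apart. Without the 2 fetal pairs that go against their labels, St6galnac2 and St3gal3 stayed past it (5.56% of the members, beside 4.57% of all genes). None passed with the scanner's processed signals, with median centring in place of loess, or in the deposited series table. Apart from the fit without the 2 fetal pairs, the share of all genes called is not given for these settings. Their counts are therefore not a result about the members.

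**Figure D2:**
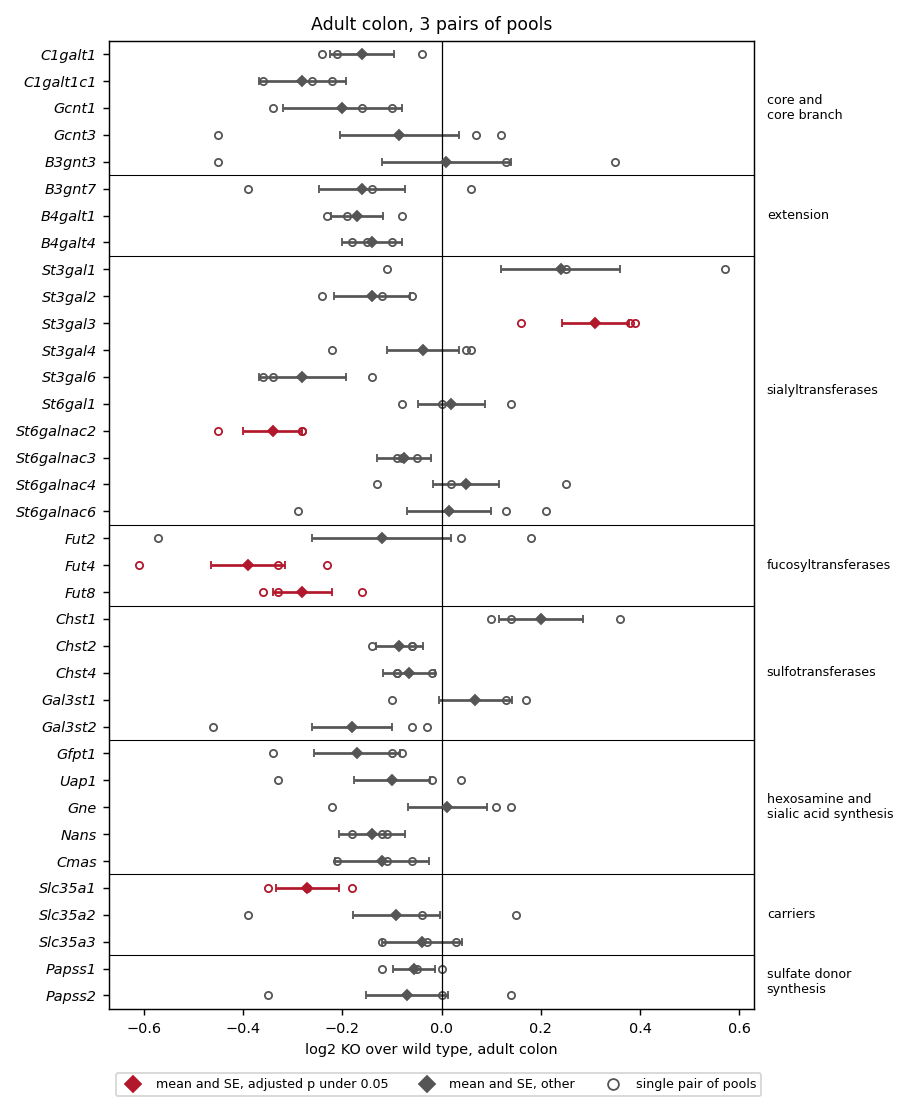
Log2 KO over wild type in adult colon (horizontal axis) for the 36 tested members by step (vertical axis), with the 3 pairs of pools as open circles and the limma mean with its SE as diamonds, red where the adjusted p was under 0.05. St6galnac2, Fut4, Fut8 and Slc35a1 lie left of 0 in all 3 pairs and St3gal3 right of 0 in all 3.

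Marker genes of several cell types were read in the same adult colon pools. Of 11 goblet genes tested, 6 were lower and 1 higher in KO (median log2 -0.31, -0.46 and -0.55 in replicates 1, 2 and 3). The 10 pancreas genes tested had medians of -2.40 and -2.87 in replicates 1 and 3, where their mean log2 level was 12.14 in KO against 14.44 in wild type and 12.53 in KO against 15.24 in wild type. In replicate 2 they stood at 8.21 in KO and 8.30 in wild type with a median ratio of -0.06, and there the 5 called members had the ratios given above, with the same signs (-0.28, -0.23, -0.36, -0.35 and 0.16). The 5 calls were not kept in a fit without replicates 1 and 3, which leaves 1 adult colon pair of pools. What other members did in that fit is not given, because it would rest on that pair alone. Smooth muscle genes (6 tested) had medians of -0.25, -0.55 and -0.18, Paneth genes (9) of 0.19, 0.27 and 0.32, B and plasma cell genes (8) of 0.30, 0.04 and 0.54, enterocyte genes (10) of 0.05, -0.02 and 0.17, and liver genes (3) of 0.06, 0.20 and -0.11. Their part in the members' differences was not tested.

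The members that build cores lay below 0 in adult colon in 4 of 5 cases, none of them called. C1galt1, which makes the core 1 structure, had -0.21, -0.04 and -0.24 there, with a fitted -0.16 ± 0.064 (n = 3, adjusted p = 0.144). C1galt1c1, the chaperone that C1galt1 needs to fold, was below 0 in all 9 replicates, from -0.44 to -0.02. Its mean over the 4 groups was -0.22 ± 0.051, the most negative value among the members, with an adjusted p of 0.0799. Gcnt1 and Gcnt3 add the branch of core 2. Gcnt1 had the highest member ratio of all, 0.73 in fetal colon pair 2, beside 0.09 in fetal colon pair 1 and -0.50 in fetal small intestine pair 3. Its 2 dimmer probes did not share that rise, with -0.02 and 0.05 in fetal colon pair 2. Gcnt3 had the lowest member ratio, -0.67 in fetal small intestine pair 3, beside -0.26 in the other replicate of that group (adjusted p = 0.361). B3gnt3, which extends core 1, ranged from -0.45 to 0.35 among the adult colon replicates alone.

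The 3 extension enzymes gave no call. B4galt1 and B4galt4, galactosyltransferases, were below 0 in all 3 adult colon replicates (fitted -0.17 ± 0.053, adjusted p = 0.0865, and -0.14 ± 0.061, adjusted p = 0.172; n = 3). B3gnt7, which lengthens lactosamine chains, was the one member with an unadjusted p under 0.05 in small intestine of adults, at 0.15 and 0.40, with an adjusted p of 0.346.

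The sialyltransferases did not share a direction in adult colon. Of 10 tested, 5 were above and 5 below 0, with a median of -0.011. St3gal6 was below 0 in 8 of 9 replicates, with an adult colon value of -0.28 ± 0.087 (n = 3, adjusted p = 0.0806). St6gal1, which acts mainly on N-glycans, had fetal values of -0.22 and -0.28 (small intestine) and of -0.14 and -0.42 (colon), while adult values ran from -0.08 to 0.28. Its mean over the fetal groups was -0.27 ± 0.059, with the lowest adjusted p among members in that comparison (0.166). St3gal1, a sialyltransferase of core 1, ranged from -0.11 to 0.57 in adult colon. The adult colon values of St3gal2, St3gal4, St6galnac3, St6galnac4 and St6galnac6 lay between -0.29 and 0.25.

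All 3 fucosyltransferases tested were below 0 in each of the 4 groups, with medians of -0.11 (adult small intestine), -0.28 (adult colon), -0.17 (fetal small intestine) and -0.11 (fetal colon). Fut2, the secretor fucosyltransferase, varied most, with 0.04, 0.18 and -0.57 in adult colon. Among the sulfotransferases Chst1 was above 0 in all 3 adult colon replicates (0.20 ± 0.085, adjusted p = 0.172), Gal3st2 below 0 in all 3 (-0.18 ± 0.080, adjusted p = 0.178), and Chst2, Chst4 and Gal3st1 had fitted values from -0.085 to 0.068 there.

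No donor enzyme passed the test in adult colon on the probes that the naming rule admits. A brighter probe filed under an older symbol of Gfpt1 did pass (-0.58 ± 0.089, limma adjusted p = 0.00996). It is described under the other observations. Gfpt1 commits fructose-6-phosphate to hexosamines and Uap1 makes UDP-N-acetylglucosamine. Gfpt1 had -0.10, -0.08 and -0.34 in adult colon (-0.17 ± 0.086, adjusted p = 0.241) and Uap1 had 0.04, -0.33 and -0.02. Gne, Nans and Cmas make CMP-sialic acid in turn, and their fitted adult colon values were 0.012, -0.14 and -0.12. The Gne probes disagreed: the second of 3 gave -0.45, -0.29 and -0.48 in adult colon, against 0.11, 0.14 and -0.22 for the brightest. Of 16 members with more than 1 usable probe, 9 had probes of 1 sign in adult colon; the exceptions were Fut2, Gcnt1, C1galt1, St3gal4, Gne, Slc35a3 and B4galt1. Slc35a2 and Slc35a3, carriers of UDP-galactose and UDP-N-acetylglucosamine, had fitted adult colon values of -0.091 and -0.039, while Papss1 and Papss2, which make the sulfate donor, had -0.056 and -0.069.

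No member passed the test in adult small intestine (median log2 -0.0081, beside -0.0087 over all genes), fetal small intestine (-0.11, beside 0.0032) or fetal colon (-0.09, beside -0.00063), where limma called 0.398%, 0.439% and 0.287% of all genes. At an unadjusted p under 0.05 there were 1, 6 and 7 members in these groups, beside 12.1%, 7.55% and 6.51% of all genes. In adult colon 12 members reached it, beside 27.6% of all genes. Below 0 lay 18, 27 and 26 of 36 members. The mean over the fetal groups, whose values but not p-values are free of the tissue labels, had 28 of 36 below 0 and no call. There 0.533% of all genes were called, and 9 members and 7.79% of all genes had an unadjusted p under 0.05. Without the 2 fetal pairs the counts stayed at 0 in these comparisons.

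The KO effects were also compared between groups, and no member's differed past the threshold. In adult small intestine minus adult colon, 31 of 36 differences were above 0, with a median of 0.14 beside 0.0013 over all genes (0.158% of genes called; 5 members and 9.32% of all genes had an unadjusted p under 0.05). In adult colon minus fetal colon the median was -0.026 (0.644% of genes called; 5 members and 14.4% of all genes unadjusted). In adult small intestine minus fetal small intestine it was 0.11, with 30 of 36 above 0 (0.258% of genes called; 5 members and 12.6% of all genes unadjusted), and 0.043 with 21 of 36 above 0 without the 2 fetal pairs. These differences share groups with each other.

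**Figure D3:**
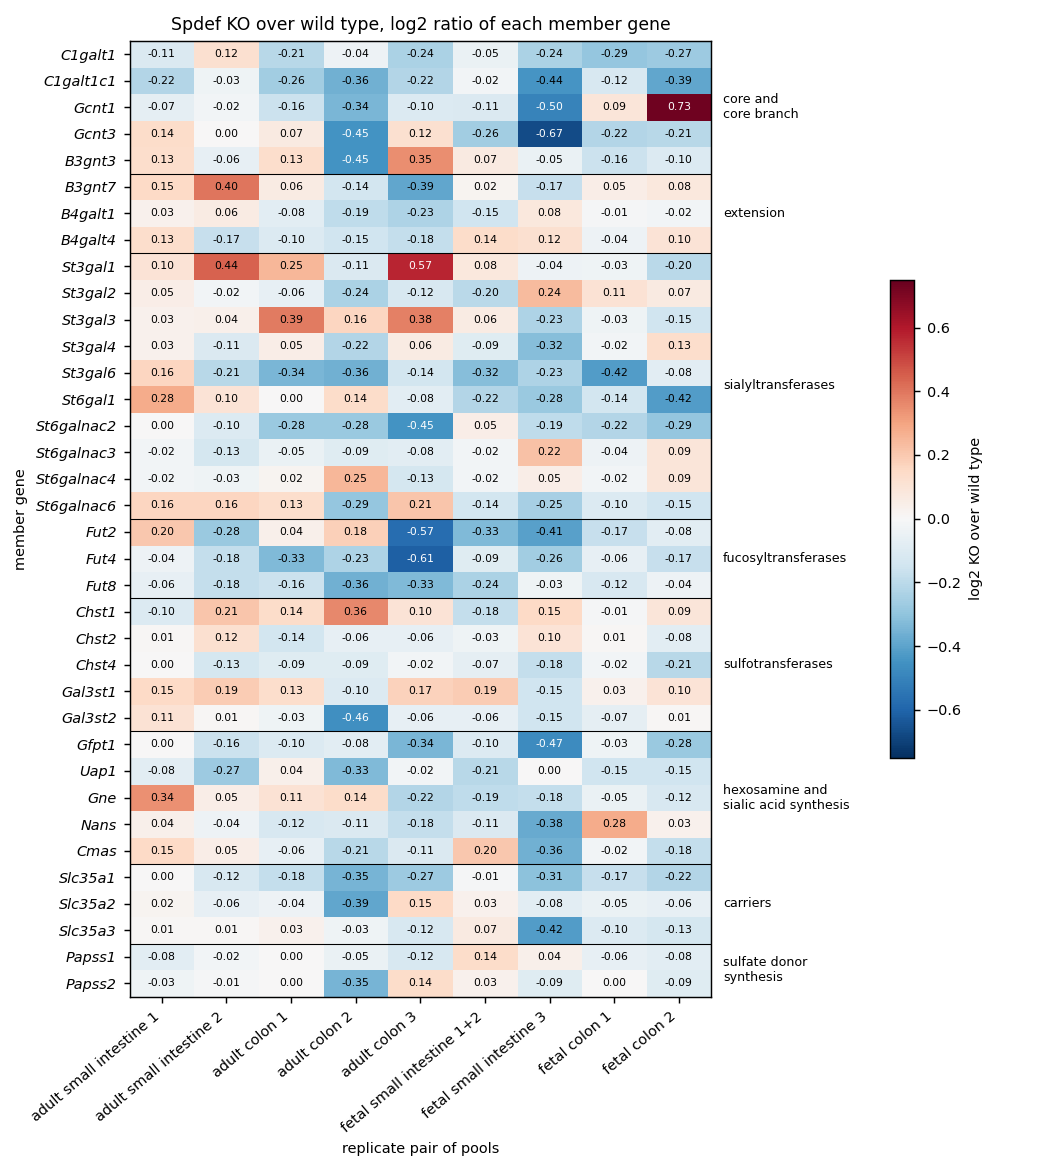
Log2 KO over wild type for each tested member (rows, by step) in each replicate pair of pools (columns), red where KO was higher and blue where it was lower. The 5 calls of the 4 groups all lie in the adult colon columns. Single pools give the extreme values (0.73 for Gcnt1 in fetal colon 2, -0.67 for Gcnt3 in fetal small intestine 3). The 2 dimmer Gcnt1 probes, not drawn, had -0.02 and 0.05 in fetal colon 2.

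For context, 70 other genes of glycan synthesis and sugar supply were tested from a wider list of 83. In adult colon 9 were lower and 3 higher in KO, with a median of -0.026, beside 9.59% of all genes called either way; without the 2 fetal pairs these counts were 5 and 1. The 3 with the smallest adjusted p were Cmah, A4gnt and St8sia5. Cmah, which hydroxylates CMP-sialic acid, had 0.62 ± 0.044 (limma adjusted p = 0.000411). A4gnt, which caps gastric-type mucin glycans, had -0.80 ± 0.056 (adjusted p = 0.000411). St8sia5, a sialyltransferase of gangliosides, had -0.71 ± 0.075 (adjusted p = 0.00263). All 3 were larger in size than any member's change. None of the 70 passed in adult small intestine or fetal colon, and Galk2, a kinase of N-acetylgalactosamine, was lower in fetal small intestine (-0.68 ± 0.10, adjusted p = 0.0325), a call lost without the 2 fetal pairs.

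The second question was where and when the members are used in wild type gut, read from the wild type channel. In adult colon 28 of 36 members lay above adult small intestine, with a median log2 difference of 0.69 beside 0.043 over all genes. Past the threshold were Cmas, Slc35a1 and St6galnac6, all higher in colon (2.97% of all genes called). The fit's spread includes the 2 fetal pairs that go against their labels. Without them 10 members passed, 27.8% beside 8.54% of all genes: Slc35a1, Nans, Gcnt1, St6galnac6, St3gal3, Gcnt3, C1galt1, Fut4 and Cmas were higher in colon and St3gal4 lower. In the same comparison the median log2 difference was 1.10 for goblet genes, 1.79 for smooth muscle genes, -5.36 for Paneth genes and -6.95 for enterocyte genes. Medians nearer 0 were 0.52 for liver, 0.31 for pancreas and 0.12 for B and plasma cell genes. The pancreas median hides a wide spread between replicates of a group. Mean wild type log2 levels of these genes were 14.44, 8.30 and 15.24 in adult colon. In adult small intestine they were 12.82 and 11.54. The part of all these marker genes in the members' differences was not tested.

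St6galnac6, a sialyltransferase of disialyl structures, differed most between the adult organs. Its wild type log2 levels were 11.79, 13.57 and 13.09 in adult colon, against 7.84 and 7.71 in adult small intestine. The groups did not overlap, and the difference was 5.04 ± 1.03 (adjusted p = 0.0492), or 33.0-fold, on the brightest probe. A dimmer second probe differed less, averaging 10.13 in adult colon and 7.24 in adult small intestine. In fetal pools the brightest probe stood at 8.52 and 10.98 in those labelled colon, against 8.51 and 11.50 in those labelled small intestine. These 2 label groups therefore overlapped. The pairs with the higher fetal levels, fetal colon pair 2 and fetal small intestine pair 3, were those with the higher Hoxb13.

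Of the sialic acid supply, Slc35a1 and Cmas were higher in adult colon. Slc35a1 had 10.94, 10.61 and 10.66 in colon, against 8.27 and 8.36 in small intestine (2.42 ± 0.40, adjusted p = 0.0239), and Cmas had 12.33, 12.02 and 12.03, against 10.67 and 11.13 (1.23 ± 0.20, adjusted p = 0.0238). Neither gene's groups overlapped. Nans averaged 13.63 ± 0.16 in colon and 11.32 ± 0.04 in small intestine (SD, n = 3 and 2), and was called only without the 2 fetal pairs. All 5 members of hexosamine and sialic acid synthesis lay above 0, from 0.77 to 2.31. Core members had a median of 1.15, with Gcnt1 at 12.28 ± 0.34 in colon against 9.60 ± 0.25 in small intestine (SD, n = 3 and 2). The 2 dimmer Gcnt1 probes differed less, averaging 8.49 and 8.34 in colon and 7.46 and 7.36 in small intestine. St3gal4 went the other way, at 12.41 ± 0.37 in colon and 14.19 ± 0.60 in small intestine (SD, n = 3 and 2), and Gal3st2, which sulfates galactose, had -1.78. Chst2 was not well above background in adult small intestine on any array, and 2 of 6 wild type channels of adult colon read it above background, so no fold is given (adjusted p = 0.486). St3gal3 was well above background in 2 of 4 wild type channels of adult small intestine.

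On the slide that held replicate 2 of both adult groups, 32 of 36 members had the sign of the fit, and on the scan day that held replicate 1 of both, 33 of 36 did, with the 3 called members among them each time; these replicates are part of the fit. The 3 calls were lost without adult small intestine replicate 1 or 2 or without adult colon replicate 2 or 3, and 9 members passed without the adult colon array that stood apart. Counts rose to 8 without fetal small intestine replicate 1 or 3, and to 5 without fetal colon replicate 1 or 2. These counts are given without the share of all genes called, so a rise is not a result about the members.

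Fetal colon and fetal small intestine, as labelled, showed no called member and 0 members at an unadjusted p under 0.05, with a median of -0.06 and differences from -0.49 to 0.30. Limma called 0.00586% of all genes there, which is 1 gene. With 1 pair left in each group, after leaving out the 2 pairs that go against their labels, differences ran from -2.37 to 2.47 and 2.69% of all genes were called, again none of them a member (lowest adjusted p 0.0896; 12 members and 16.4% of all genes at an unadjusted p under 0.05; lone replicates taken to vary like the other groups). On the slide that held both excluded pairs, 27 of 36 members had the sign of the labelled difference. Those pairs are part of that difference, so the shared sign is partly built in.

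**Figure D4:**
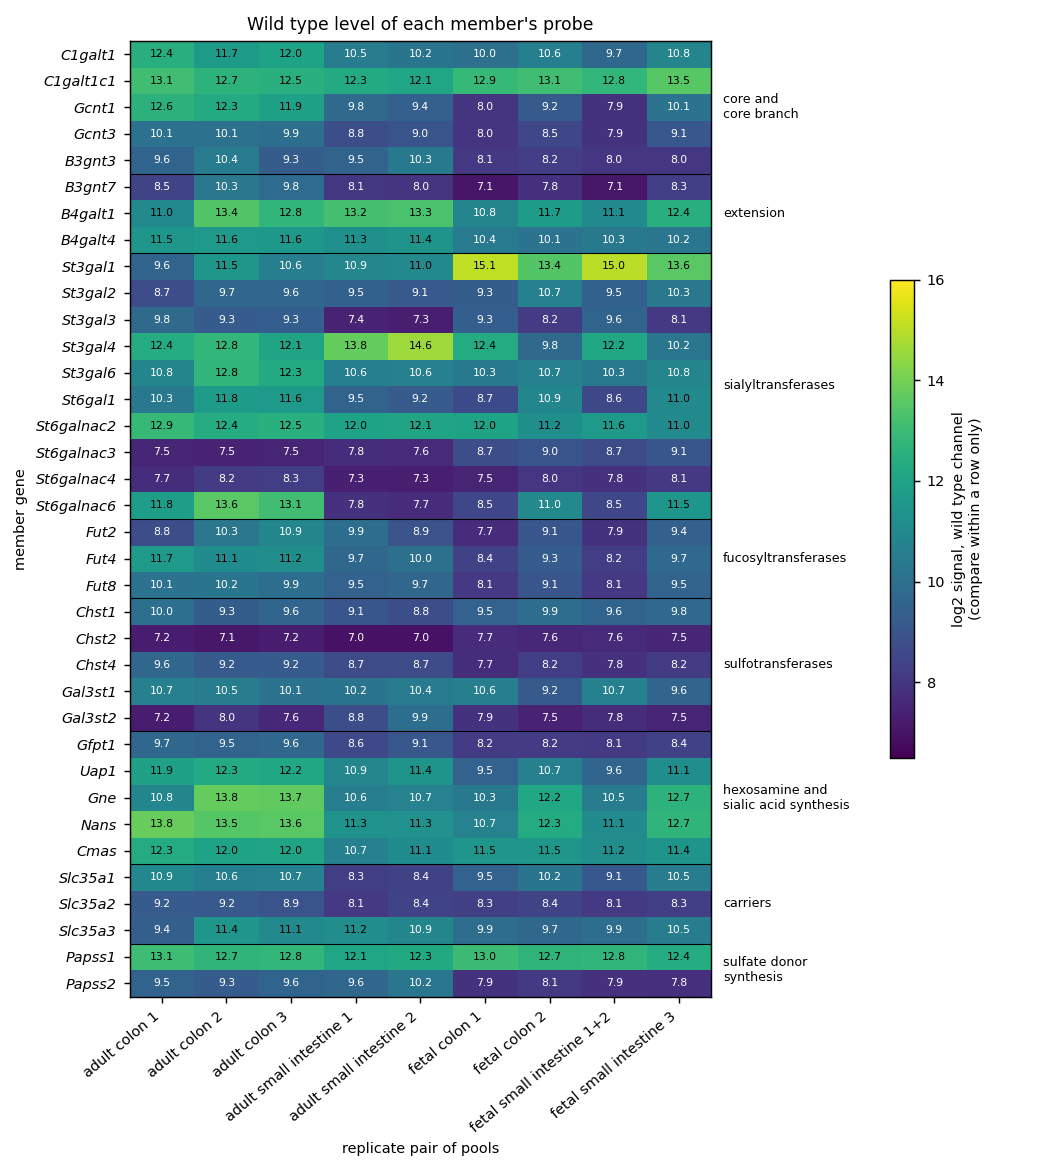
Wild type log2 signal of each tested member (rows, by step) in each replicate (columns, by label), to be compared within a row only. St6galnac6 reaches 13.57 in adult colon, against 7.71 at its lowest in adult small intestine, and St3gal1 is brightest in the fetal pools (up to 15.1).

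Between stages, 6 members differed in small intestine (16.7%, beside 8.44% of all genes) and 12 in colon (33.3%, beside 8.82%). In adult against fetal small intestine Papss2, B3gnt3, B4galt4 and Gal3st2 were higher and St3gal1 and St6galnac3 lower. In adult against fetal colon Gcnt1, Fut4, Uap1, Gcnt3, C1galt1, B3gnt3, Papss2, Gfpt1, Chst4 and B4galt4 were higher and St3gal1 and St6galnac3 lower. The median member difference was 1.32 in colon, beside -0.04 over all genes, and 0.10 in small intestine, beside -0.053. In the colon comparison goblet genes had a median of 1.32 (4 of 11 called higher), pancreas genes 5.0, B and plasma cell genes 1.36 (4 of 8 called higher), smooth muscle genes 0.87, Paneth genes 0.46, liver genes -2.00 and enterocyte genes -3.37. In the small intestine comparison the medians were 0.31 (goblet), 4.16 (pancreas), 1.17 (B and plasma cell), -0.81 (smooth muscle), 5.40 (Paneth), -1.54 (liver) and 2.02 (enterocyte). Their part in the members' stage differences was not tested.

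St3gal1 fell furthest with age in small intestine as in colon. Its wild type level averaged 10.96 ± 0.10 in adult small intestine and 14.28 ± 1.02 in fetal small intestine (SD, n = 2 each; difference -3.32 ± 0.78, adjusted p = 0.0430). In adult colon the levels were 9.57, 11.52 and 10.58, against 15.09 and 13.45 in fetal colon (-3.71 ± 0.71, adjusted p = 0.0226). In both organs every adult pool was below every fetal pool, and 5 of 6 wild type channels of adult colon measured it. Without the 2 fetal pairs the small intestine value was -4.04 (adjusted p = 0.0344), and the colon value, -2.90, was not called. Gcnt1, which opens the core 2 branch, had 12.62, 12.29 and 11.94 in adult colon, against 7.97 and 9.19 in fetal colon (3.70 ± 0.64, adjusted p = 0.0164), with no overlap. Its 2 dimmer probes differed less, averaging 8.49 and 8.34 in adult colon and 7.29 and 7.28 in fetal colon. Papss2 in small intestine had the lowest adjusted p among the members there, at 9.93 ± 0.44 in adult and 7.82 ± 0.07 in fetal small intestine (SD, n = 2 each; 2.11 ± 0.25, adjusted p = 0.00382).

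Between stages in colon, calls came from most steps. Of 5 core members 4 were called higher, as were 2 of 5 in hexosamine and sialic acid synthesis, 1 of 3 extension enzymes, 1 of 3 fucosyltransferases, 1 of 5 sulfotransferases and 1 of 2 in sulfate donor synthesis. The 3 carriers lay between 0.73 and 0.89 with no call, and among 10 sialyltransferases the 2 calls were both lower, while without the 2 fetal pairs 3 were called higher and 1 lower. On the slide that held adult colon replicate 3 and fetal colon pair 2, 35 of 36 members had the sign of the fit, which those replicates are part of. No slide held both adult and fetal small intestine, so slide and stage cannot be told apart there.

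Leaving out the 2 fetal pairs kept the number of stage calls at 6 in small intestine (5.81% of all genes) and at 12 in colon (8.85%), with partly other members. In small intestine St3gal1 and Papss2 stayed, and Fut4, Fut8 and Uap1, higher in adult, and St3gal3, lower (-2.23), came in. In colon Gcnt1, Fut4, Gcnt3, St6galnac3, B4galt4, Uap1 and Gfpt1 stayed, and St6galnac2, St3gal4, Gal3st1, St3gal3 and Nans came in, all higher in adult. Single replicates mattered too. Small intestine calls numbered 2 without adult small intestine replicate 1, 1 without its replicate 2 or without fetal small intestine replicate 3, and 3 without fetal small intestine replicate 1. Colon calls numbered 6 without adult small intestine replicate 1 or 2, 5 without adult colon replicate 3 and 3 without fetal colon replicate 1. Without the adult colon array that stood apart they numbered 11 and 21. The share of all genes called is not given for these single settings, so their counts are not a result about the members.

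**Figure D5:**
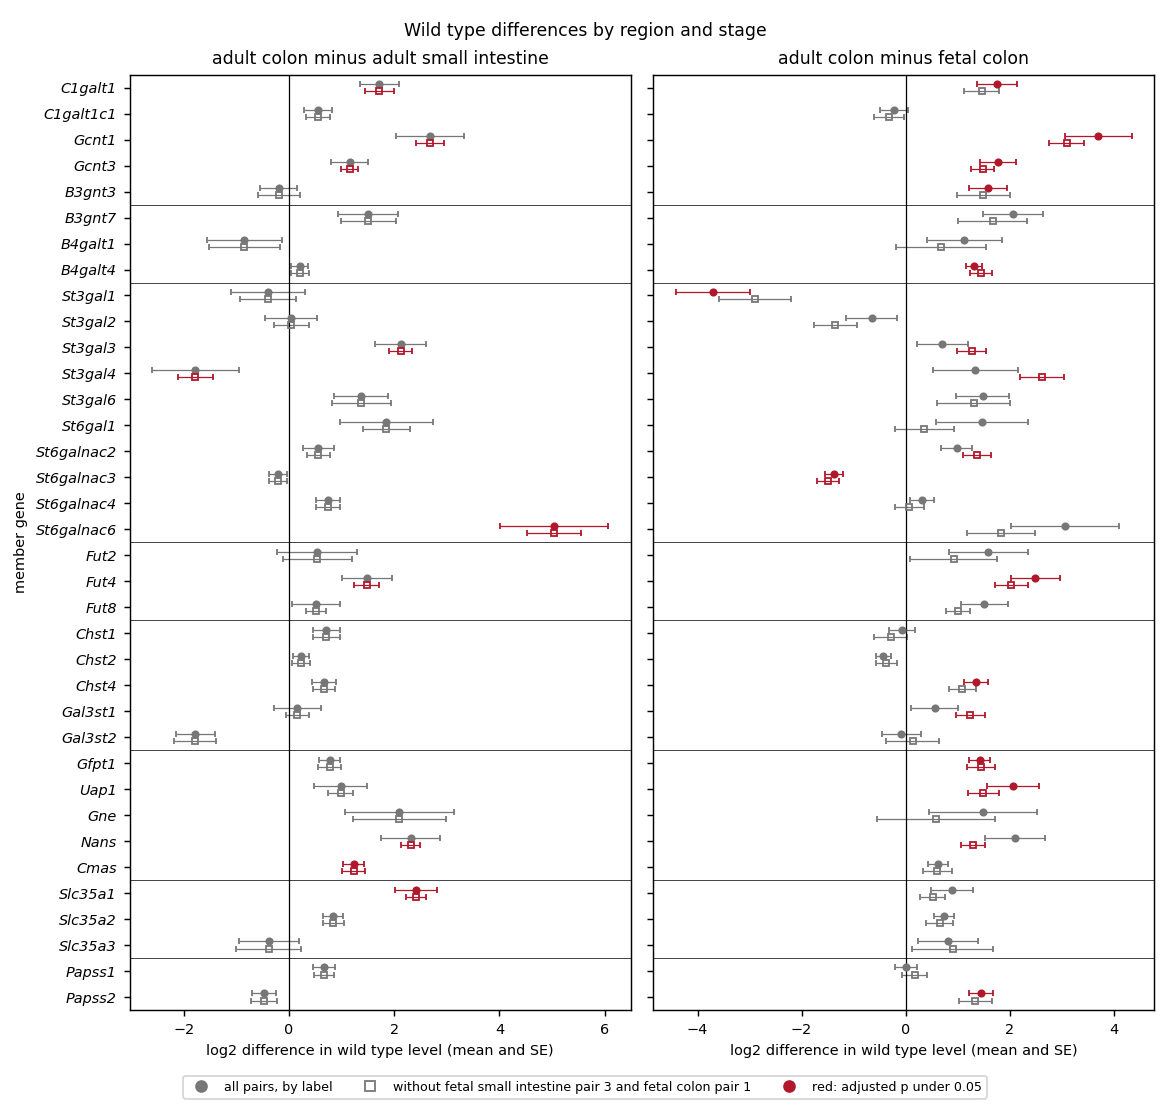
Wild type log2 differences (horizontal axes, limma mean with SE) of each tested member (vertical axis) for adult colon minus adult small intestine (left) and adult colon minus fetal colon (right), with all pairs as circles and without the 2 fetal pairs that go against their labels as squares, red where the adjusted p was under 0.05. Red points number 3 and 10 on the left and 12 and 12 on the right.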

How the data were processed

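Pooled RNA (500 ng) of KO and wild type gut was run on 2-colour Agilent arrays; per the submitters' processing notes, Feature Extraction 9.5.3 read them. Per the file headers, the authors' scanner files give mean signals, backgrounds and processed signals as intensity, a log10 ratio of red over green, and spot flags. The deposited series table holds log2 KO over wild type (r of 0.946 to 0.998 with the scanner's processed ratios over values not at 0); its column medians are all 0 and 49.0% to 72.7% of its values are exactly 0, and its centring stays unknown. Probe coordinates are mm8. Probes were named through RefSeq accessions (23374), current symbols (6733), older symbols (2919) or kept the file's name (8148).

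Limma 3.58.1 (R 4.3.3) corrected background (normexp, offset 50) and normalized arrays by loess, with control spots at weight 0 and outlier spots left out. Array and dye swap were averaged. Wild type levels came from Aquantile scaling. Probes well above background on all arrays of 1 group and genotype were kept. All 9 replicates entered 1 fit (5 residual degrees of freedom), two-sided, with Benjamini-Hochberg adjustment over 17077 genes. The number of arrays limits the precision. Nothing says that pools were separate litters, so p-values measure the spread between these pools. Members and lists were chosen with earlier results of these data known. By rule all members are named, the called ones in every replicate; the probe of 2810423A18Rik was named after its values were seen. On simulated adult colon ratios for 17077 genes, the fit recovered 86.0% of 100 genes changed by 0.5 (log2) and 100 of 100 changed by 1, with 11 false calls. Smaller changes, such as those of the called members, and changes in the other groups were not simulated. Nor was noise shared between replicates, since each replicate's noise was drawn independently. The real adult colon ratios correlated across genes at 0.729 between replicates 1 and 3. That correlation was 0.56 between replicates 1 and 2 and 0.22 between replicates 2 and 3.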

Additional observations from a re-analysis of the deposited data

How the results depend on the processing

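Counts of members past the threshold moved with the settings, while no called member's direction turned under any setting tried. The counts below are of members alone, without the share of all genes called under each setting. The 5 adult colon KO calls became 0 with scanner processed signals, median centring or the deposited series table. They also became 0 with the group fitted alone or with replicates 1 and 3 as 1 replicate. They became 2 without the 2 fetal pairs that go against their labels. Counts were 3 without background subtraction or with a trend and robust prior, and 0 to 6 without single replicates. Without the 2 replicates with pancreas transcripts 1 adult colon replicate is left, and the 5 calls were not kept. The 1 call in the mean over the 4 groups became 4 with the replicate number as a block, 5 with all 10 pairs as replicates, 0 to 3 without single replicates, and 0 under 13 other settings (the 4 signal, normalization and table choices, no dim-probe filter, the mean of all probes, slide or scan day as a block, the robust prior, and the 4 with pairs or arrays left out or merged). The mean over the fetal groups, with 0, had 1 with processed signals (Gcnt3). The 3 calls of wild type adult colon against adult small intestine became 0 with the replicate block, with adult colon replicates 1 and 3 merged or left out; 1 without the filter; 5 with processed signals, no background subtraction, median centring, all probes, slide block or robust prior; 7 with 10 pairs; 9 without the array that stood apart; 10 without the 2 fetal pairs or fitted alone; and 0 to 8 without single replicates. The 6 stage calls in small intestine became 10 with processed signals, 3 with the strict filter or fitted alone, 1 with the replicate block, 11 without that array, and 1 to 7 without single replicates. The 12 in colon became 3 with the replicate block, 7 fitted alone, 21 without that array, 6 with adult colon replicates 1 and 3 merged, 1 without them, and 3 to 13 without single replicates. The other 7 results (adult small intestine, fetal small intestine, fetal colon, the 3 differences of KO effects, and wild type fetal colon against fetal small intestine) stayed at 0 under all 26 settings each.

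Same-numbered replicates of different groups deviated together at -0.0739 to 0.159 across genes, against -0.159 to 0.159 for other numbers, so the numbers are not taken to pair the pools and the replicate block is given here only. Settings that merge adult colon replicates 1 and 3 or leave out both, drop that array, use scan day, or average the fetal groups were chosen after seeing the data. Where a group keeps 1 replicate, it is taken to vary like the others. Members near background, such as Chst2, are limited by signal. The cause of these shifts was not tested.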

Other observations

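A bright probe filed under 2810423A18Rik, which the RefSeq table lists as an older symbol of Gfpt1, the entry enzyme of hexosamine synthesis, was left out by the naming rule and was noticed after its values were seen. It lies at mm8 chr6:87057565-87057624. Its log2 KO over wild type was -0.34 and -0.20 (adult small intestine), -0.45, -0.62 and -0.67 (adult colon), -0.24 and -0.58 (fetal small intestine), and -0.21 and -0.59 (fetal colon), below 0 on 20 of 20 arrays. In the same fit it was lower in KO adult colon (-0.58 ± 0.089, limma adjusted p = 0.00996) and in the mean over the 4 groups (-0.42 ± 0.052, adjusted p = 0.00842), while adult small intestine, fetal small intestine and fetal colon alone had adjusted p of 0.364, 0.280 and 0.383. The 2 probes filed as Gfpt1 averaged -0.17 and -0.15 in adult colon.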
